A study of Caenorhabditis elegans with 2 samples.

Results

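The cytosolic ribosomal protein genes of Caenorhabditis elegans were examined as places where the transcription factor LIN-29 was found on chromatin. They were taken as all protein-coding genes of the WBcel235 annotation whose symbol begins with rpl- (large subunit) or rps- (small subunit), and 78 of 19973 genes met this rule, 47 of them rpl- and 31 rps-. Chromatin immunoprecipitation with sequencing (ChIP-seq) had been done with an anti-GFP antibody on whole L4 larvae aged 49 hours, after hatchlings had been synchronised by starvation. All animals were of strain RW12227, in which TY1, EGFP and 3xFLAG tags had been inserted by CRISPR into lin-29 itself on chromosome II, so the tagged protein is made from its own locus. The series holds 1 group of 2 samples, biological replicates 1 and 2 by their labels. No second condition, untagged strain or input was analysed here, so the comparisons below are between genes and between replicates, and no test across conditions was possible.

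Ribosomal proteins are the protein part of the cytosolic ribosome: those of the large subunit surround the peptidyl transferase centre and the tunnel through which the new chain leaves, and those of the small subunit hold the messenger RNA and the decoding centre. Their genes are among the most strongly transcribed in growing animals and have to be expressed in step, since subunits assemble with fixed proportions of each protein. LIN-29 is a zinc finger protein at the end of the developmental timing (heterochronic) pathway, where it drives the change of the epidermis from larval to adult fate. In a whole-animal extract, binding in a few cells and weaker binding in many cells cannot be told apart.

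LIN-29 sites were found at ribosomal protein genes of both subunits, more often than at protein-coding genes in general, and each of these sites lay upstream of the gene. A site was a region of 1 or more overlapping peaks in the authors' thresholded list made from both replicates, termed the pooled list, which held 906 peaks and 856 sites. It was assigned to a gene when its summit, the point of highest enrichment, fell between 2000 bp upstream of the gene's 5′ end and its 3′ end. By this rule 24 of the 78 genes had a site, which is 30.8% (95% Wilson interval 21.6 to 41.7%), against 4.61% of all protein-coding genes. The 24 genes were served by 23 sites, because rps-26 had 2 and each of 2 sites stood between a pair of ribosomal protein genes. The window mattered little: 24 members also had a summit within 500 bp of the 5′ end, where the share of all genes was 2.08%.

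The sequence at the summits is shown for sites that share short words with one another and for a strong site that lacks them. Each run is 101 bases centred on the summit, read 5′ to 3′ on the strand of the gene, from the RefSeq genome of WBcel235 (ce11). Capitals mark copies of the 8-mers, on either strand, that occurred at 4 or more ribosomal protein sites and are described further on.
rpl-3 (chrIII:3867514-3867614, plus strand): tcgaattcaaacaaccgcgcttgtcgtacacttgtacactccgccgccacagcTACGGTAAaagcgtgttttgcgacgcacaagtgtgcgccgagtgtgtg
rps-1 (chrIII:4475594-4475694, plus strand): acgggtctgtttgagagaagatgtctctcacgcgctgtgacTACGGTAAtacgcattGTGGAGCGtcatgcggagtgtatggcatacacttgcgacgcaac
rpl-20 (chrIV:4750046-4750146, minus strand): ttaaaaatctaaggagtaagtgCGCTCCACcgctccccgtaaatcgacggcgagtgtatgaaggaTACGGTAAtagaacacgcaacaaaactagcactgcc
rpl-15 (chrIV:654880-654980, minus strand): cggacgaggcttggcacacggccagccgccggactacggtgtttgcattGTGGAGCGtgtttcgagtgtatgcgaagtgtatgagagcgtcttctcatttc
rps-23 (chrIV:12391298-12391398, minus strand): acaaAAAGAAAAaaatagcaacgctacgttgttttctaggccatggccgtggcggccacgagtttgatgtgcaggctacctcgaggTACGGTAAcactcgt
rpl-36 (chrIII:7179820-7179920, plus strand; the same site serves rps-14 on the minus strand): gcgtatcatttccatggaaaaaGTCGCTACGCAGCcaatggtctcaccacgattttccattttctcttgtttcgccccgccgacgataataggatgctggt
rps-30 (chrV:7776243-7776343, plus strand; the same site serves rpl-39 on the minus strand): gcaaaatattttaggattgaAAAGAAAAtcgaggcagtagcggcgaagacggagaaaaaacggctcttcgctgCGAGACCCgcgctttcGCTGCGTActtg
rpl-35 (chrIII:7854663-7854763, plus strand; none of these 8-mers): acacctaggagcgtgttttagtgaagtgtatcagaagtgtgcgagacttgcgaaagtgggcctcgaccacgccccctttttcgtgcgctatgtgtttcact

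Of the large subunit genes, 13 of 47 had a site (27.7%, 95% Wilson interval 16.9 to 41.8%). The strongest belonged to rpl-3, whose protein reaches towards the peptidyl transferase centre. Its signal, the authors' peak caller's own value for a peak, was 575 in the pooled list, 313 in replicate 1 and 265 in replicate 2, which gave it rank 3 of the 856 sites, rank 4 of 43103 candidate peaks in replicate 1 and rank 2 of 44693 in replicate 2. Candidate peaks are those of the ranked lists, before any threshold on reproducibility. The scaling of these values is not stated, so levels are interpreted only within a list. The rpl-20 site (425 pooled, 234 in replicate 1 and 194 in replicate 2) and the rpl-35 site (375, 201 and 171) ranked 7 and 10. The product of rpl-35 sits at the mouth of the exit tunnel. Next came rpl-15 (299, 164 and 138), rpl-7A (298, 162 and 145) and rpl-12, which codes for a protein at the base of the stalk that receives translation factors (238, 129 and 108). These 6 genes had signals above 200 and were high in both replicates.

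The remaining 7 large subunit genes formed a lower group, from 131 down to 57.3 in the pooled list. Members of this group were rpl-24.2, whose human counterpart is an assembly factor of the large subunit (131 pooled, 83.0 in replicate 1 and 51.1 in replicate 2), rpl-41.2 (89.3, 52.9 and 39.7) and rpl-39, whose small protein lines the exit tunnel (84.1, 47.3 and 37.9). With them were rpl-11.2, whose protein binds 5S rRNA (83.0, 51.1 and 32.4), rpl-7 (82.7, 61.4 and 19.7), rpl-29 (74.6, 44.4 and 30.4) and rpl-36 (57.3, 42.3 and 15.8). By rank among each replicate's candidates, replicate 2 fell furthest behind replicate 1 at rpl-7 and rpl-36. The ranks were 247 in replicate 1 and 6244 in replicate 2 at rpl-7, and 574 and 14040 at rpl-36.

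Of the small subunit genes, 11 of 31 had a site (35.5%, 95% Wilson interval 21.1 to 53.1%). The interval overlapped widely with that of the large subunit, and the difference between the subunits was not tested. The shares are not independent, since rps-30 and rpl-39 share a site, as do rps-14 and rpl-36. The strongest was rps-1 (247 pooled, 135 in replicate 1 and 108 in replicate 2), followed by rps-19, a protein of the head of the subunit (206, 126 and 85.9). Then came rps-12 (178, 101 and 75.0) and rps-28, at the channel where messenger RNA leaves (177, 101 and 76.8). The middle of the group held rps-20 (131, 72.5 and 59.2), rps-15 (125, 78.0 and 46.0) and rps-23, a protein of the decoding centre (122, 72.5 and 48.5). Below them were rps-26, near the exit of the messenger RNA channel (107, 56.1 and 46.0), rps-24 (97.8, 71.7 and 34.3), rps-30 (84.1, 47.3 and 37.9) and rps-14, a protein of the platform (57.3, 42.3 and 15.8). Only 2 of the 11 exceeded a signal of 200, against 6 of the 13 large subunit genes, while the medians of the strongest signals were 125 and 131.

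**Figure D1:**
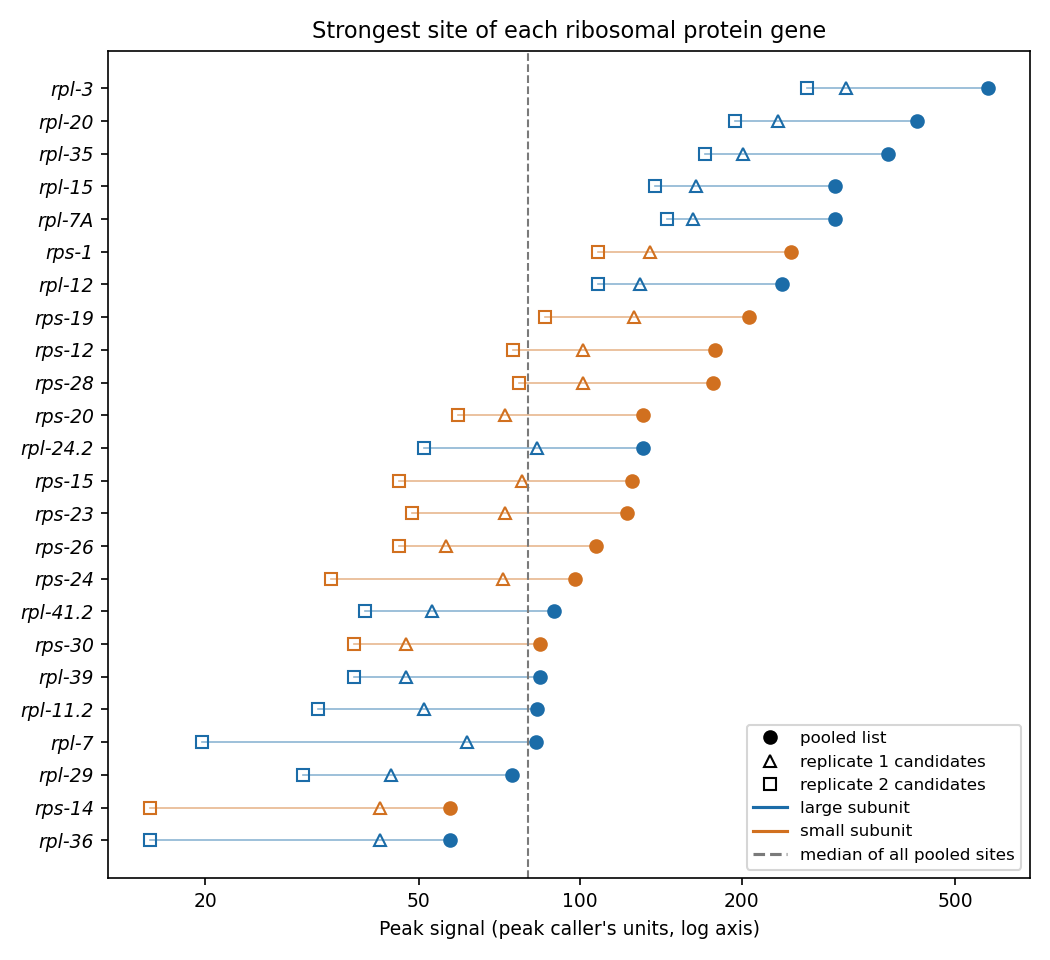
Signal of the strongest site of each of the 24 ribosomal protein genes with a site, on a log axis, in the pooled list (filled circles) and at the matching candidate peak of replicate 1 (triangles) and replicate 2 (squares), with large subunit genes in blue and small subunit genes in orange. The dashed line is the median of all pooled sites, 79.9; rpl-3 stands at the top with 575, and rps-14 and rpl-36, which share a site, at the bottom with 57.3.

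The ribosomal protein sites had a higher median signal than all LIN-29 sites. Their median signal was 131 (quartiles 86.7 and 243, range 57.3 to 575, n = 23 sites), against 79.9 for all 856 sites (quartiles 65.6 and 114). Of the 23 sites, 20 lay above the median of all sites, and 10 were among the 100 strongest. The 50 strongest held 7 of them, whereas the 23 are 2.69% of all sites. The 270 other sites with a summit in the 500 bp before a protein-coding gene had a median of 83.8 (quartiles 67.7 and 124). The same order held at the candidate peaks of each replicate: the medians were 78.0 at ribosomal protein sites and 46.1 at all sites in replicate 1, and 51.1 and 37.5 in replicate 2. No test is given for these differences, because sites are not replicates.

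The 2 replicates ranked the ribosomal protein sites in nearly the same order. Spearman's rho between them was 0.947 across the 23 sites, which share the same libraries, and 0.574 across the 803 pooled sites for which each replicate had a candidate. The member sites ran from rank 3 to rank 796 of the 856, and the difference between these coefficients was not tested. In raw values replicate 1 was the higher at 22 of the 23 sites and at 596 of the 803, with a median ratio of 1.32 and 1.26. The scaling between the 2 lists is unknown, so this offset is not read as a difference in enrichment. The exception among the 23 was the weaker of the 2 sites at rps-26 (60.4 pooled, 27.6 in replicate 1 and 37.1 in replicate 2). That site was in neither replicate's own thresholded list. How many reads lie behind the values is unknown, since the lists carry no counts.

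Replicate 1's own thresholded list gave a site to 24 of the 78 members, against 2.94% of all protein-coding genes, and these were the same 24 genes as in the pooled list. Replicate 2's own list gave a site to 16 members, against 2.22% of all genes, and all 16 were among the 24. So 66.7% of the members with a pooled site were found in each replicate alone, compared with 36.6% of all 920 genes with a pooled site. The 8 members that replicate 2 left out differed in how near they came. The irreproducible discovery rate (IDR) is read like a false discovery rate. For a given peak, it estimates a share among all peaks at least as reproducible: those whose rank does not repeat between 2 inputs. It is not that peak's own chance, and the lists keep peaks at 0.01 or less. In replicate 2 the IDR was 0.0119 at rpl-41.2, 0.0170 at rps-20, 0.0479 at rpl-11.2 and 0.131 at rps-24. It was 0.645 at rpl-7 and rpl-29 and 0.783 at the site of rps-14 and rpl-36.

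The second list made from both replicates, which its name calls conservative, held a site for 23 members, against 4.39% of all genes. It shared 21 of them with the pooled list. It left out rpl-7, rpl-36 and rps-14, the same genes whose candidates were weakest in replicate 2, and added rpl-22 and rps-16. By list, 8 to 13 of the 47 large subunit genes and 8 to 11 of the 31 small subunit genes had a site. The share was higher for the small subunit in each of the 4 lists, and the intervals overlapped in each. The large subunit had the higher share when each site was given only to the nearest 5′ end, as described further on.

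**Figure D2:**
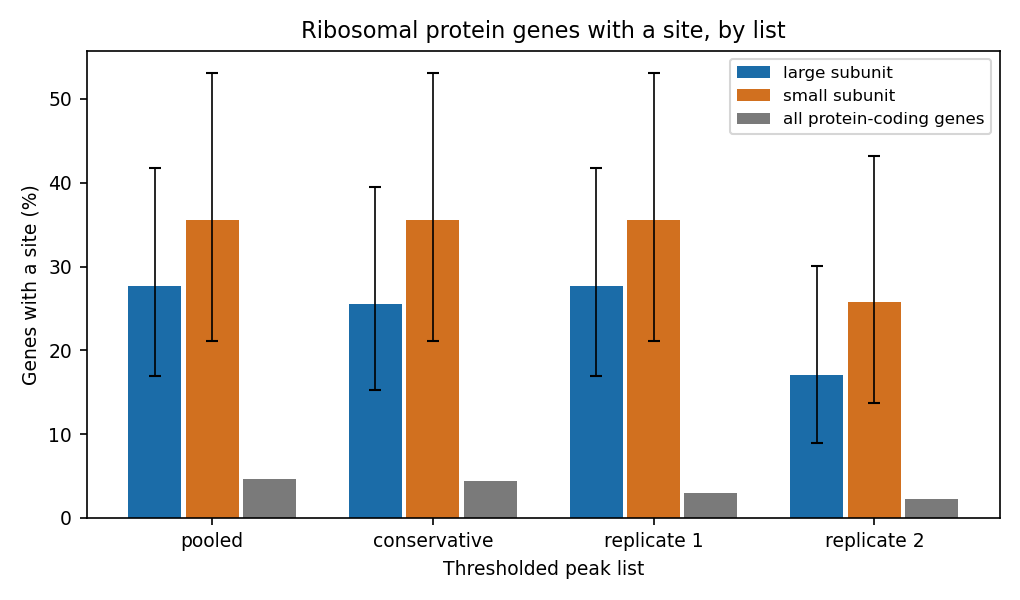
Percent of large subunit genes (n = 47, blue), small subunit genes (n = 31, orange) and all protein-coding genes (n = 19973, grey) with a site in each of the 4 thresholded lists; bars on the members are 95% Wilson intervals, which cover counting error over genes. Both subunits stand above all genes in every list, and the intervals of the 2 subunits overlap.

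The summits kept a narrow range of distances from the genes. In all 24 genes the strongest summit was upstream of the 5′ end, between 35 bp at rpl-12 and 466 bp at rps-28, with a median of 294 bp. It was 65 bp at rpl-7A, 143 bp at rpl-24.2 and 169 bp at rps-12, and 19 of the 24 lay between 200 and 450 bp. Among all 920 genes with a site, 70.1% had the strongest summit upstream, 37.6% within 500 bp upstream, and 18.5% between 200 and 450 bp, with a median of 234 bp upstream. The window runs to the 3′ end, and the median gene length was 708 bp for the 24 genes and 3148 bp for the 920. The 920 thus had more room for a summit inside the gene, and the shares were not adjusted for this. Large and small subunit genes had medians of 293 and 295 bp. The only summit beyond 500 bp was the second one of rps-26, 990 bp upstream and inside an exon of the neighbouring gene tmem-107.

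**Figure D3:**
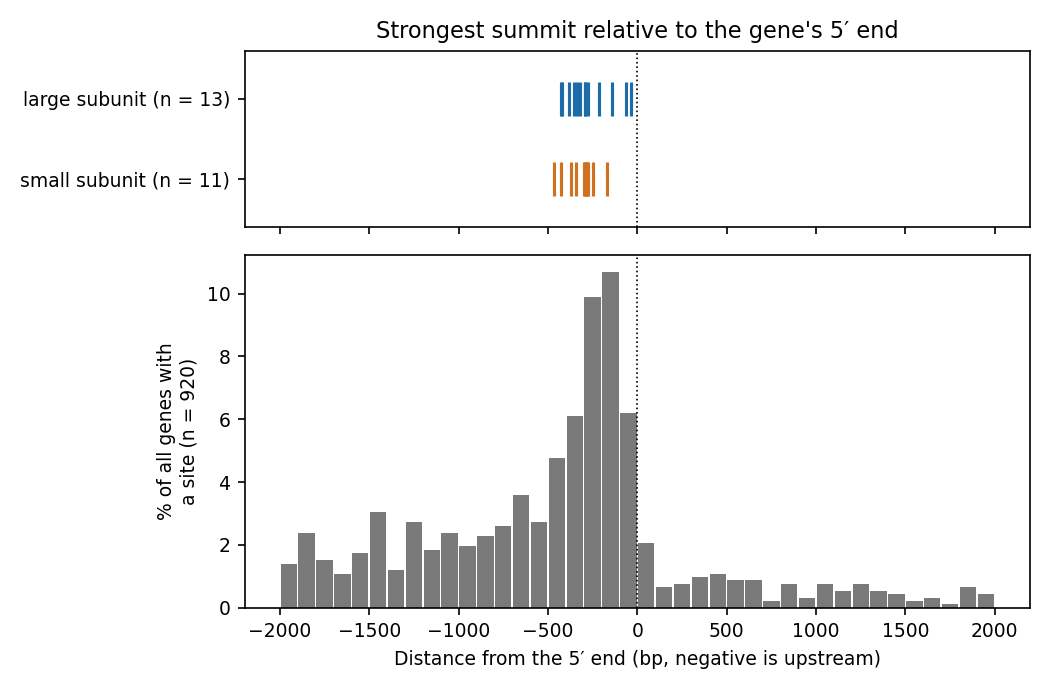
Distance of the strongest summit from the 5′ end in bp, negative upstream: each tick in the upper panel is 1 ribosomal protein gene with a site, and the bars in the lower panel give the percent of all 920 genes with a site in bins of 100 bp (genes beyond the axis are not drawn). The ticks lie between 35 and 466 bp upstream, whereas the grey bars extend to 2000 bp upstream and into the genes. The 920 genes are longer (median 3148 bp, against 708 bp), so their windows reach further inside the gene.

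Nearly all of these summits were in intergenic sequence: 19 of 23 lay outside every annotated gene. The share over all pooled sites is not given here, so this location is not shown to be particular to ribosomal protein sites. Those at rpl-7 and rps-1 fell in exons of noncoding RNA genes, and that at rpl-24.2 in an intron of C03D6.1. The 23 sites lay in single-copy sequence: the median share of 50-base words found once in the genome was 100%, and the lowest was 92.3%, at rps-24. Their GC content within 50 bp of the summit, 50.5% in the median, was near that of all sites, 49.5%. A snoRNA gene lay within 500 bp of 4 of the sites, at 89 and 238 bp for rps-26, 249 bp for rps-12 and 347 bp for rpl-7A. For this count too, the share over all pooled sites is not given. Without sites near small RNA genes, 21 members kept a site (26.9%), against 3.66% of all protein-coding genes.

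Many of the sites stood between the ribosomal protein gene and a gene transcribed the other way. The next protein-coding gene upstream was divergent in 20 of the 24 genes with a site (83.3%). That share was 63.0% of the 54 members without a site, 57.0% of all 920 genes with a site and 46.2% of all protein-coding genes. In 17 of the 24 the upstream gene was divergent and within 1000 bp (70.8%). The same arrangement was found in 59.3% of the 54 members without a site. It was found in 31.0% of all 920 genes with a site and in 21.3% of all protein-coding genes. So it was frequent among ribosomal protein genes whether or not they carried a site. At 7 of the 23 sites the nearest 5′ end belonged to another gene. These neighbours were hsr-9 (149 bp from the summit, 296 bp for rps-19), ekl-4 (152 bp, and 245 bp for rps-20), tmem-107 (28 bp, and 429 bp for rps-26), ska-3 (124 bp, and 169 bp for rps-12), Y17G9B.5 (144 bp, and 318 bp for rpl-20) and dpm-3 (239 bp, and 295 bp for rps-23). The weaker site of rps-26 is the seventh. The lists cannot tell to which of 2 flanking genes such a site belongs. If a site was given only to the gene with the nearest 5′ end, 16 members kept one (20.5%), against 2.91% of all protein-coding genes. They were 11 of the 47 large subunit genes (23.4%) and 5 of the 31 small subunit genes (16.1%), so that the order of the subunits turned under this assignment, with intervals of 13.6 to 37.2% and 7.09 to 32.6% that overlap.

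In 3 places a large and a small subunit gene stood head to head within 2000 bp. The rpl-39 and rps-30 pair, 498 bp apart on chromosome V, shared the site with a signal of 84.1, which was in both replicates' own lists. The rpl-36 and rps-14 pair, 662 bp apart on III, shared the site with 57.3, the weakest of a member's strongest sites. Between rpl-24.1 and rps-10, 609 bp apart, a candidate peak with a signal of 55.5 had an IDR of 0.0224 and was not kept.

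Most of the members without a site did have a candidate peak, but a poorly reproducible one. The ranked list of 65474 candidates placed at least 1 in the window of 77 of 78 members, against 82.0% of all protein-coding genes, and rpl-4 was the exception. Taking the most reproducible candidate of each gene, 29 members reached an IDR of 0.05, against 7.59% of all genes. The 5 of these without a site were rps-16 (IDR 0.0130, summit at -1788 bp from the 5′ end), rpl-22 (0.0176, at -232 bp), rps-18 (0.0187, at -510 bp) and the rps-10 and rpl-24.1 pair. Just inside the threshold, the highest IDR of a member with a site was 0.00556, at rps-14 and rpl-36. In replicate 2 the IDR of that site was 0.783. Of the rest, 14 had an IDR over 0.05 and up to 0.25, and 34 over 0.25. The least reproducible were rpl-2, rpl-17 and rpl-37, each at 0.876, and rpl-25.2 at 0.771. The median IDR over the 53 siteless members with a candidate was 0.454, against 0.568 over all genes with one.

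**Figure D4:**
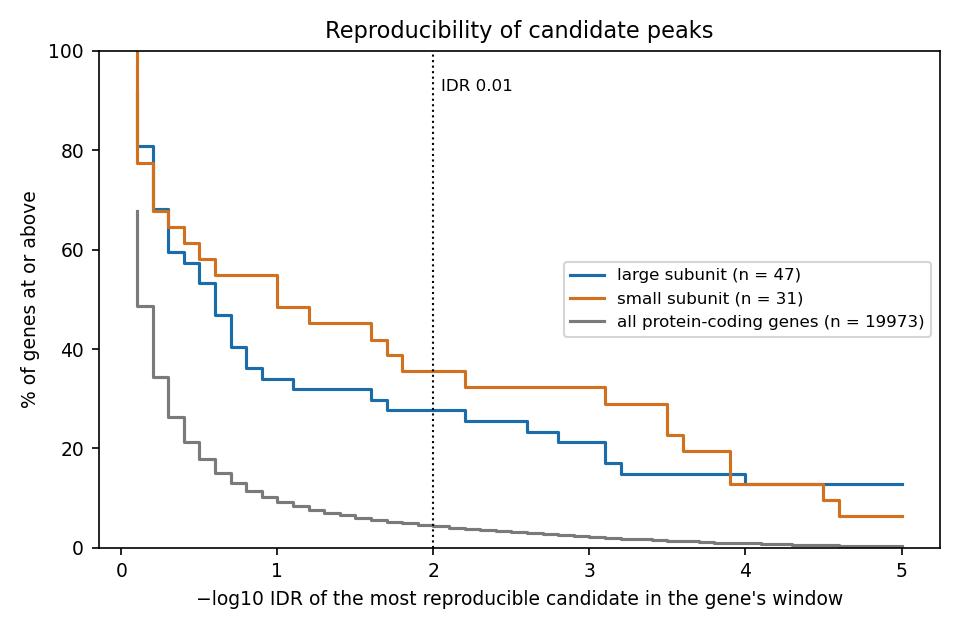
Percent of large subunit genes (blue), small subunit genes (orange) and all protein-coding genes (grey) whose most reproducible candidate reaches a given −log10 IDR. Candidates and IDR are those of the ranked list made from both replicates. The dotted line marks an IDR of 0.01, and genes with no candidate count as 0. Both subunit curves stay above that of all genes over the whole range and cross each other at its ends.

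Members with and without a site had similar medians of gene length, upstream gap and base composition. The median gene length was 708 bp with a site (n = 24, range 307 to 1734) and 760.0 bp without (n = 54, range 276 to 1576), both short against 2027 bp over all genes. The median gap to the next upstream gene was 637 and 550.0 bp, and the median GC content of the 500 bp upstream was 34.2 and 33.2%, with 33.8% for all genes. A snoRNA gene lay within 500 bp of 20.8% of members with a site and 14.8% of those without. The share was 8.70% of all genes with a site and 1.46% of all genes. A gene on the same strand ending within 500 bp upstream was found for 0 of 24 members with a site and 8 of 54 without (14.8%). It was found for 18.4% of all genes with a site and 20.6% of all genes.

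By place in the ribosome, sites were found at genes for several of its functional centres. Of 6 genes for proteins near the peptidyl transferase centre and the exit tunnel, rpl-3 and rpl-39 had a site and rpl-2, rpl-4, rpl-10 and rpl-17 had none. Of 6 around the tunnel exit only rpl-35 had one, and of 3 whose products bind 5S rRNA only rpl-11.2. The shares in these lists were 33.3, 16.7 and 33.3%, against 27.7% of all large subunit genes and 4.61% of all protein-coding genes. Each list is short, and each 95% Wilson interval holds the 27.7%. Of 10 genes for proteins of the decoding centre and messenger RNA channel, 6 had a site (60.0%, 95% Wilson interval 31.3 to 83.2%), with rps-28 the strongest and a median signal of 114. That share is above the 35.5% of all small subunit genes, but its interval holds the latter value. With each site given only to the nearest 5′ end, rps-14, rps-15 and rps-28 kept a site, and rps-23, rps-26 and rps-30 did not. The site of rps-14 was absent from the conservative list and from replicate 2's own list. These gene lists were chosen with earlier results of these data known.

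Among 5 pairs of members that share a number, 5 of the 10 genes had a site. Of the rpl-11 and rpl-41 duplicates, rpl-11.2 and not rpl-11.1 (IDR 0.200), and rpl-41.2 and not rpl-41.1 (IDR 0.338), had a site. So did rpl-24.2 and not rpl-24.1, but this is no pair of like proteins: the human counterpart of rpl-24.2 acts in assembly of the large subunit, and that of rpl-24.1 is a ribosomal protein. Neither rpl-25.1 (IDR 0.262) nor rpl-25.2 had one. Both rpl-7 and rpl-7A did, but these code for unrelated proteins. The rpl-41 genes are neighbours on one chromosome, and the site of rpl-41.2 lies between them, 293 bp upstream of it.

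By chromosome, 8 of 17 members on IV had a site, against 3.93% of all protein-coding genes there, 6 of 18 on III (6.33%) and 7 of 23 on I (6.71%). On V it was 2 of 8 (3.04%) and on X 1 of 2 (4.65%). None of the 10 on II had one, while 4.41% of all genes there did. The conservative list added rpl-22 on II.

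Sites were also present at other genes of the translation machinery, in lower shares. Of 6 cytosolic ribosome genes whose symbols fall outside the rule (the stalk genes rla-0, rla-1 and rla-2, the ubiquitin fusion genes ubl-1 and ubq-2, and rack-1), only rla-1 had a site, 64 bp inside the gene (signal 76.8). Translation factors, taken as genes whose symbol begins with eef-, eif- or iff-, had sites at 7 of 33 genes (21.2%, 95% Wilson interval 10.7 to 37.8%). They were iff-2 (171), eef-1G (159), eef-2 (139.8), eif-3.C (97.1), eef-1A.1 (91.9), eif-6 (86.4) and eif-3.G (49.1). The summits of eif-6 and eif-3.G lay far from the 5′ end, at -1958 and -1098 bp, and the others within 500 bp of it. Mitochondrial ribosomal proteins, which build a separate ribosome, had 4 of 70 (5.71%, 2.24 to 13.8%), close to the 4.61% of all genes: mrps-28 (110.1), mrpl-55 (101), mrpl-28 (76.1) and mrpl-23 (66.6). Of these, mrps-28 and mrpl-23 had their summits at -1044 and -983 bp. The subunits of RNA polymerases I and III had 1 of 10 (rpac-19, 91.4), and 17 annotated genes of ribosome biogenesis had 2, pro-1 (176) and nol-58 (72.4). The interval of the mitochondrial list lies below that of the cytosolic genes, and the intervals of the other lists overlap it. No difference between lists was tested.

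**Figure D5:**
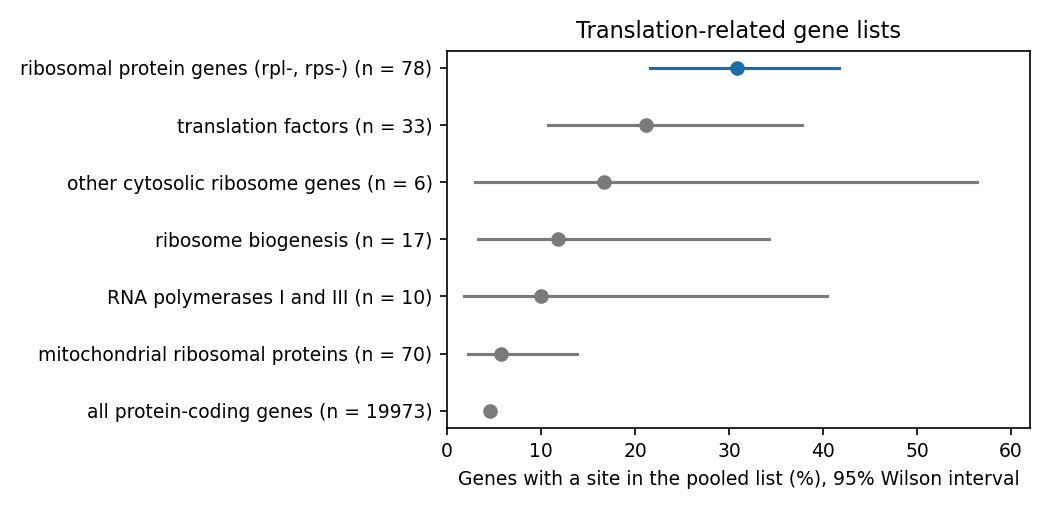
Percent of genes with a site in the pooled list, with 95% Wilson intervals that cover counting error over genes, for the ribosomal protein genes and for other translation-related lists. The cytosolic ribosomal protein genes stand at 30.8% and the mitochondrial ones at 5.71%, near the 4.61% of all protein-coding genes.

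For each 6-base word compared, the share of all LIN-29 sites lay within the 95% Wilson interval for the 23 ribosomal protein sites. These intervals are wide, so whether the shares differ cannot be told, and no difference was tested. ACGCAG, read on both strands within 50 bp of the summit, was present at 6 of 23 sites (26.1%, 95% Wilson interval 12.5 to 46.5%) and at 17.2% of all sites. GAGAGA was present at 5 (21.7% against 22.0%), GCGCGC at 3 (13.0% against 9.23%) and ACGCGC at 1 (4.35% against 12.5%). These words had been chosen on the sites of this series, so their presence is a description only.

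Of 1893 distinct 8-mers at the ribosomal protein sites, 6 occurred at 4 or more of them. They were chosen after the sequences were seen, and are described without a test. CGCTCCAC (or its reverse complement, GTGGAGCG) occurred at 5 sites, those of rpl-12, rpl-15, rpl-20, rps-1 and rps-15, and at 10 of the 833 other sites (1.20%). It was in the 500 bp upstream of 5 of the 24 members with a site, of 1 of the 54 without (rps-22) and of 1.28% of all protein-coding genes. GTAGCGAC occurred at 4 sites, those of rpl-12, rps-15, rps-19 and the shared site of rps-14 and rpl-36, and at 3 of the other sites (0.360%). It was upstream of 5 members with a site, of 0 of the 54 without and of 0.391% of all genes. GCTGCGTA, which contains ACGCAG on its other strand, was at 4 sites and at 0.960% of the other sites, and upstream of 7 members with a site, of 3 without (rpl-24.1, rps-10 and rps-3) and of 0.486% of all genes. At rpl-12, rps-19 and the rps-14 and rpl-36 site it overlaps GTAGCGAC and both join into 1 run, shown in capitals for rpl-36 above. In the upstream counts of all these words, 1 copy between head-to-head members counts for both genes. This applies to rpl-24.1 with rps-10, rpl-39 with rps-30 and rpl-36 with rps-14, so separate copies are fewer than genes.

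TACGGTAA was found at the sites of rpl-3, rpl-20, rps-1 and rps-23, where it begins 287, 303, 283 and 259 bp upstream of the 5′ end. These 4 sites are 17.4% of the 23, and 6 of the 833 other sites held the word (0.720%). It was upstream of 5 of the 24 members with a site, of 8 of the 54 without and of 2.03% of all genes. CGAGACCC was at 4 sites (rpl-7, rpl-29, rpl-41.2 and the shared site of rpl-39 and rps-30) and at 2.88% of the other sites, and upstream of 5 members with a site, of 15 without and of 2.68% of all genes. Upstream of the members, these 2 words were found with and without a site, whereas CGCTCCAC and GTAGCGAC were found upstream of 1 and 0 of the 54 members without one. The members with a site were the ones on which the words were picked, so a higher count there is built in. AAAGAAAA, at 4 sites and 2.52% of the other sites, was upstream of 13 members with a site, 21 without and 24.9% of all genes. A match says only that these letters are present, not that a protein binds them.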

How the data were processed

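The authors deposited 8 peak lists on ce11, per the labels, as candidates ranked by IDR or as thresholded lists. Per the deposited manifests, lists of 1 replicate were made from its alignments, all others from both replicates, each with a further input of unstated role. Which aligner and peak caller were used is not given in the sources used here. Deposited beside each peak, the score, which the authors scaled up to 1000, is lowest at 830 in the pooled list, where the ranked lists' deposited −log10 IDR is 2. The deposited signal was written by the authors' peak caller, with unstated scaling; summits are deposited as offsets from a peak's start. Depth is unknown, since the lists hold no counts.

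Peaks overlapping by 1 bp or more were merged into sites that keep the strongest peak's summit and signal. Gene models were Ensembl release 115 (WBcel235, the assembly named ce11) and sequence was RefSeq's. A replicate's value at a site is its strongest candidate with a summit within 100 bp. Single-copy shares count 50-base words found once in the genome. Intervals are 95% Wilson intervals and cover counting error only. No test was run: there is 1 group, and genes and sites are not replicates. Merging and assignment were tested on simulated peaks. Text names every member with a site, the 5 siteless members with the lowest and the 5 with the highest IDR or no candidate, genes sharing a nearest site, and listed genes with a site. The members, lists and 6-mers were chosen with earlier results of these data known. Alternatives changed the list, window, merging, assignment, signal threshold and sequence width. Python 3.11.15, numpy 2.4.6, pandas 2.3.3 and scipy 1.17.1 were used.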

Additional observations from a re-analysis of the deposited data

How the results depend on the processing

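The number of ribosomal protein genes with a site stayed between 16 and 24 under all 10 alternatives. Using each replicate's own list alone gave 13 (replicate 1) and 8 (replicate 2) large subunit genes, 22 and 15 sites, median summit distances of -292 and -274 bp, and 7 and 3 sites with ACGCAG. The median signal was then 80.5 and 85.9 on each replicate's own scale, 1.40 and 1.59 times the median of all sites of that list, against 1.64 times in the pooled list. The number of all protein-coding genes with a site fell to 587 and 443 in those lists, to 508 with only the sites above the median signal (where the median signal at ribosomal protein sites was 154 by construction), to 415 within 500 bp of the 5′ end and to 581 with the nearest 5′ end only. Nearest assignment left 5 small subunit genes. A sequence width of 25 bp around the summit left 3 sites with ACGCAG. Without sites near small RNA genes 21 members kept a site, against 731 of all protein-coding genes. No paired analysis was possible because the series has 1 group.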
